A study of Mus musculus with 2 samples.

Results

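The clustered replication-dependent histone genes were described in the open chromatin of the mouse adrenal gland. They were the protein-coding genes whose symbol begins with Hist1h, Hist2h, Hist3h or Hist4h, which gave 67 of the 21938 protein-coding genes used. By type they were 6 H1, 18 H2A, 18 H2B, 12 H3 and 13 H4 genes. By cluster they were 54 Hist1 genes on chromosome 13, 10 Hist2 genes on chromosome 3, 2 Hist3 genes on chromosome 11 and 1 Hist4 gene on chromosome 6. The names and the clusters chose the members, and no measured value did. The assay was DNase-seq, which counts where the nuclease DNase I cuts DNA in nuclei. The tissue was the entire adrenal gland, taken from B6CASTF1/J females at an age of 36 days. These mice are the F1 hybrid of C57BL/6J and the wild-derived strain CAST/EiJ. There was 1 group of 2 libraries, replicates 1 and 2. The labels give the animals different numbers but the same donor record, so the spread between the libraries may be technical in part. With 1 group of 2 libraries no test between conditions was possible and no p-value was computed.

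Dividing cells must make histones in step with new DNA. The replication-dependent genes supply the bulk of H1, H2A, H2B, H3 and H4 in S phase, are short, lack introns and end in a conserved stem-loop in place of a poly(A) tail. Cyclin E and its kinase act through NPAT in a nuclear structure called the histone locus body, HINFP binds the promoters of H4 genes, and SLBP binds the stem-loop of the messages. An accessible promoter does not by itself mean that the gene is being transcribed.

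The sequences that the results turn on are given first. They come from the reference assembly GRCm38 (mm10), which is the C57BL/6J sequence, so that the CAST/EiJ allele of these mice can differ from them. Of the 13 H4 promoters, 12 held GGTCCG, the core of the H4 promoter element, between 250 bases before and 50 bases after the gene start. The 30 bases around it are shown on the strand that reads GGTCCG, which is in capitals. In each of the 12 this was the strand of the gene.
Hist1h4c (chr13:23698490-23698519, minus strand): tctagttttcaaccaGGTCCGcagaaggcc
Hist1h4d (chr13:23581506-23581535, plus strand): tcaggttttcaaacaGGTCCGcattggtat
Hist1h4h (chr13:23531024-23531053, plus strand): ttcagtcttcaatcaGGTCCGaaaacactg
Hist4h4 (chr6:136804449-136804478, minus strand): tgctgttttcaatcaGGTCCGctcccagga
Hist1h4i (chr13:22041394-22041423, minus strand): ttctgttttcactccGGTCCGcaagttccc
Hist2h4 (chr3:96263365-96263394, minus strand): ttcagttttcaatctGGTCCGatcctctca
Hist1h4b (chr13:23756928-23756957, plus strand): tgaagttctcaaccaGGTCCGataagagcc
Hist1h4f (chr13:23551700-23551729, minus strand): ttcagtcctctaaaaGGTCCGcattcgcca
Hist1h4k (chr13:21750571-21750600, minus strand): gcaggttctcatttcGGTCCGcccgccgca
Hist1h4j (chr13:21735001-21735030, plus strand): gcaggttctcatttcGGTCCGcccgctaca
Hist1h4m (chr13:21811684-21811713, plus strand): tcctgttttcactccGGTCCGcaagttccc
Hist1h4n (chr13:21832229-21832258, minus strand): tcctgttttcactccGGTCCGcaagttccc
Outside the 6 searched bases, 4 of the other 24 columns held the same base in all 12 sites. These were columns 5 (g), 6 (t), 9 (t) and 10 (c), counted from the 5′ end. Column 11 held a in 11 of the 12. Hist1h4m and Hist1h4n carried identical stretches.

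The bases upstream of the tallest member of each type by the 1 kb rule, and of 3 more genes, are shown next, with the searched motifs in capitals on whichever strand they lie. They are CCAAT, which the factor NF-Y binds, and TATAAA, the usual TATA box. The others are the octamer ATTTGCAT of the OCT factors, then AAACACA, known from H1 promoters, then GGGCGG, which Sp1 binds, and the H4 core GGTCCG. Each runs 5′ to 3′ on the strand of the named gene and ends at the base before its annotated start. For the H2A-H2B pairs of Hist2h2be and Hist1h2bp the stretch is the whole space between the starts of both genes. For Hist1h2aa it is 250 of the 305 bases between its start and that of Hist1h2ba.
Hist1h1c (chr13:23738558-23738807, plus strand): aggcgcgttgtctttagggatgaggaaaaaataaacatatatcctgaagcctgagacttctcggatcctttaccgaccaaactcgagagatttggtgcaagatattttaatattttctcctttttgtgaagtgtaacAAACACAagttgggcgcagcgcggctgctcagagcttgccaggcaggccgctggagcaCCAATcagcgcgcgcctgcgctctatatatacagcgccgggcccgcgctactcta
Hist2h2aa2 (chr3:96240277-96240526, minus strand): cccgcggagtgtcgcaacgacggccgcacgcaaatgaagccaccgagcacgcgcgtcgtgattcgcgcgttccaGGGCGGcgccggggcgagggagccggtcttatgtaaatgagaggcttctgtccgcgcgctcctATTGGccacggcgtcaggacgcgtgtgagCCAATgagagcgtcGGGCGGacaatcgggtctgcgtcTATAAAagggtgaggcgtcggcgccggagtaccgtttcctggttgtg
Hist2h2be, shared with Hist2h2ac (chr3:96220881-96221118, plus strand): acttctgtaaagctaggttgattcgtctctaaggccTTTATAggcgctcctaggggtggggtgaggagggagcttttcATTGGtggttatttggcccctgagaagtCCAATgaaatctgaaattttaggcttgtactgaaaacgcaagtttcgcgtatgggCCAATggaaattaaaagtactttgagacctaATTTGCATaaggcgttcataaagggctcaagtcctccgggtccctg
Hist1h2bp, shared with Hist1h2an (chr13:21787219-21787460, plus strand): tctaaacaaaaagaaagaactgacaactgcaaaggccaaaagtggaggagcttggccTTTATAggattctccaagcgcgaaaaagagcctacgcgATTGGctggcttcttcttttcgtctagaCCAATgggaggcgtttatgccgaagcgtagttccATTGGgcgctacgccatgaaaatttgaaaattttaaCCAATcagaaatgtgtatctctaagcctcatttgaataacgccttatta
Hist1h3a (chr13:23762387-23762636, minus strand): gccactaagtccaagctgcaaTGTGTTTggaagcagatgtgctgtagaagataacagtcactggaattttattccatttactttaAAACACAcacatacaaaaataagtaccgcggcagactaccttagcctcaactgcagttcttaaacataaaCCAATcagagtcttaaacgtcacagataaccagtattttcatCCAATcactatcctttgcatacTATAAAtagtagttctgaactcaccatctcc
Hist1h3e (chr13:23562370-23562619, minus strand): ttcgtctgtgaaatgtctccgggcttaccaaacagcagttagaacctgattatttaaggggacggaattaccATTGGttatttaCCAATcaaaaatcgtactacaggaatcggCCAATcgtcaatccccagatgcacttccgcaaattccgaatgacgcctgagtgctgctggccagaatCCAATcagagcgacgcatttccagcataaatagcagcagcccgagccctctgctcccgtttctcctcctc
Hist1h4c (chr13:23698455-23698704, minus strand): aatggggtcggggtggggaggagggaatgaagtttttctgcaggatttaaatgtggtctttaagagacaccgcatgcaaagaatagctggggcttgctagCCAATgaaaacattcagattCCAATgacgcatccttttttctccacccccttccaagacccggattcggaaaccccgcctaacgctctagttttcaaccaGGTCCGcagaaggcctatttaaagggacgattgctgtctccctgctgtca
Hist1h2aa (chr13:23934212-23934461, plus strand): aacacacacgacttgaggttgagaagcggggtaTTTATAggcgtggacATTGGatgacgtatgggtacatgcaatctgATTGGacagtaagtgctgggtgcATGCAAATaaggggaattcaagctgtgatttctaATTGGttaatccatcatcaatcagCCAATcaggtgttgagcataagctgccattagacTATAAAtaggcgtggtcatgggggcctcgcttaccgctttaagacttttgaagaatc
Hist2h2aa2 is the tallest H2A gene and Hist1h4c the tallest H4 gene by mean height. Hist1h1c is the tallest H1 gene by the 1 kb rule, but by a peak past its stop codon, and Hist1h1e has the taller peak at the start. Hist2h2be and Hist2h2ac share the tallest peak of H2B, and Hist1h2bp and Hist1h2an share the tallest such peak in Hist1 by mean height, though not in replicate 2. Hist1h3a is the tallest H3 gene by the 1 kb rule and Hist1h3e the tallest by the peak nearest to it. Hist1h2aa, known from the testis, is shown because it had no peak.

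Most clustered histone promoters were open in both libraries, and their median height was above that of all genes in replicate 1 and close to it in replicate 2. Promoter height here is the authors' signal for the tallest peak of a gene that reached within 1 kb of an annotated transcription start site, or 0 with no peak. A peak was present for 58 of the 67 genes in replicate 1 and for the same 58 in replicate 2, or 86.6%, and the other 9 had none in either library. Over all protein-coding genes 67.4% had a peak in both libraries, 68.6% in replicate 1 and 69.6% in replicate 2. The median height of the 67 genes was 4.24 in replicate 1 and 4.49 in replicate 2, or 4.37 ± 0.18 (SD, n = 2). The median of all genes was 2.97 and 4.46. These medians count genes without a peak as 0. For the 14797 genes with a peak in both libraries the medians were 7.13 and 10.6. That set holds no gene at 0, so its medians are not on the same footing as those of the 67 genes. Above the median of all genes were 45 of the 67 in replicate 1 and 34 in replicate 2. In both libraries it was 33, a share close to the 49.0% of all genes that were above it in both. Hist1h4a and Hist1h3a, which share a peak, were the 2 genes above the 90th percentile of all genes in both libraries (14.7 and 21.7), as were 8.78% of all genes.

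The histone promoters were rich in CpG, and their median height was below that of other genes with as many CpG. The 67 genes had a median of 62 CpG in the 1 kb around the start against 41 for all genes. The 4099 other genes between the quartiles of the members' CpG counts (53 to 73) had median heights of 8.68 and 13.1, and 96.1% of them had a peak in both libraries. Histone genes also resemble each other in sequence, and a median of 77.1% of the 36-base words within 1 kb of a start occurred at 1 place in the genome, against 99.0% for all genes. Among the 30 histone genes with at least 80% unique words the median heights were 4.58 and 6.78, and among all genes with at least 80% they were 4.13 and 6.32. How the authors treated reads that fit several places is not given in the sources used here, and the part of it in these heights was not tested.

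**Figure D1:**
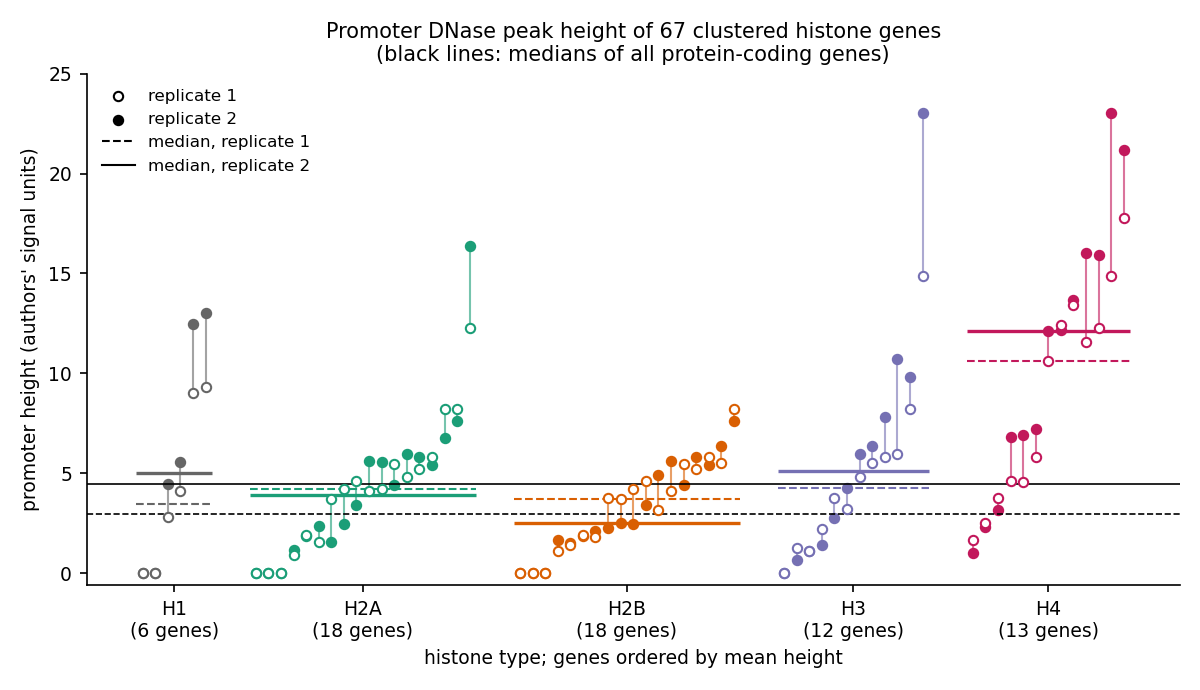
Promoter height of each of the 67 genes, in the authors' signal units, grouped by histone type and ordered by mean height. Open circles are replicate 1 and filled circles replicate 2, joined for each gene, with the median of each type dashed for replicate 1 and solid for replicate 2, and the black lines give the medians of all protein-coding genes (2.97 and 4.46). The H4 medians (10.6 and 12.1) lie above those of the other types in both libraries.

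H4 genes, whose protein forms the core of the nucleosome with H3, had the highest median of the 5 types. All 13 had a peak in both libraries, and 10 of the 13 were above the median of all genes in both. Their median height was 10.6 in replicate 1 and 12.1 in replicate 2, against 4.13 and 3.84 for the 54 genes of the other types, a ratio of 2.57 and 3.16. H4 genes with at least 80% unique words, 10 in number, had medians of 11.1 and 12.1, and the 20 other histone genes with as many unique words had 3.004 and 4.70.

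Hist1h4c was the tallest member by mean height, with 17.8 in replicate 1 and 21.2 in replicate 2. Its peak in replicate 1 (chr13:23698381-23698600) covers the gene start. Hist1h4a had 14.9 and 23.0, and its peak (chr13:23761221-23761500) covers its start and the bases upstream. The only Hist4 member, Hist4h4, had 12.3 and 15.9. After these, Hist1h4i had 11.6 and 16.002, Hist1h4d 13.4 and 13.7, and Hist1h4h 12.4 and 12.2. Hist2h4, the H4 gene of the Hist2 cluster, had 10.6 and 12.1. A gap then separated these 7 genes from the remaining 6 H4 genes in both libraries. Hist1h4b had 5.81 and 7.23, Hist1h4k 4.57 and 6.94, and Hist1h4f 4.597 and 6.81. Hist1h4j had 3.77 and 3.18, but its tallest peak in replicate 1 lay 773 bp upstream, and the peak at its start was 1.61 in replicate 1. The lowest were Hist1h4m with 2.51 and 2.29 and Hist1h4n with 1.67 and 0.997. Of their 36-base words 4.83% and 5.09% were unique, so that their heights are uncertain.

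Footprints lay over most of the H4 elements. A footprint is a short stretch protected from cutting inside open chromatin. Of the 12 H4 promoters with GGTCCG, the match overlapped a footprint by at least 1 base in 11 in replicate 1 and in 9 in replicate 2 (91.7% and 75%). Over all 2107 promoters with the letters the shares were 22.8% and 26.2%, and over the 1930 with a promoter peak in both libraries 24.7% and 28.4%. The letters occurred in 9.60% of all promoters. The H4 footprints had a median length of 34 bp in both libraries. Footprints on the same letters at other promoters, chosen the same way, had medians of 14 bp at 454 sites in replicate 1 and 17 bp at 532 sites in replicate 2, with 95th percentiles of 37 and 38 bp. A long footprint meets a fixed site more readily, and the median of all footprints was 10 bp.

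At Hist1h4c the footprint ran over 45 bases in replicate 1 (chr13:23698478-23698522) and 48 bases in replicate 2 (chr13:23698476-23698523). Both covered the element and the AT-rich stretch after it, as in the replicate 1 sequence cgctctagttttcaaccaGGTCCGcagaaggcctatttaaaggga. Hist1h4d and Hist1h4i had footprints of 45 bases each in replicate 1 and of 37 and 46 bases in replicate 2. Hist4h4 had 35 and 34 bases, Hist1h4h 41 and 32, Hist1h4b 34 and 41, Hist1h4k 27 and 29, and Hist2h4 27 and 22. At Hist1h4f the footprints were short, 9 and 11 bases, and reached only the edge of the match. Hist1h4j (17 bases) and Hist1h4n (12 bases) had a footprint in replicate 1 that also reached only its edge, and none in replicate 2, and Hist1h4m had none in either. The overlap was thus 1 or 2 bases at 3 of the 11 sites in replicate 1 and at 1 of the 9 in replicate 2, while the whole match was covered at 8 and 7. The H4 genes without a footprint there in 1 or both libraries were thus the 3 with the lowest promoters in replicate 2. Hist1h4a, the only H4 promoter without GGTCCG in the window, held TGACGTCA and TTTCCCGC, letters bound by CREB-like factors and E2F.

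H1 genes encode the linker histone that closes the nucleosome. Of the 6 members 4 had a peak in both libraries, and their medians, with the genes at 0 included, were 3.49 and 5.02. Hist1h1c had 9.32 and 13.05, but this tallest peak (chr13:23739641-23739900 in replicate 1) is centred 284 bp past the stop codon. The peak at its start, chr13:23738701-23738920, was 6.44 and 9.18. Hist1h1e had 9.04 and 12.5 at a peak that covers its start. Lower peaks were found at Hist1h1a, with 4.13 and 5.55, and Hist1h1b, with 2.84 and 4.49. All 4 were higher in replicate 2. Hist1h1d had none within 1 kb of its annotated start, which lies 1828 bp before its start codon. A peak at chr13:23554901-23555100, centred 89 bp before that codon, was 2.86 and 4.90. Hist1h1t, the testis form of H1, had no peak although 100% of its 36-base words were unique.

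Most H2A and H2B genes, whose proteins form the outer dimers of the nucleosome, stand head to head. There were 12 such pairs, which joined 24 of the 36 H2A and H2B genes, with 175 to 305 bp between the starts and a median of 258.5 bp. The same peak was the tallest for both genes in 9 of the 12 pairs in replicate 1 and in 8 in replicate 2. In 3 pairs neither gene had a peak. Counted as distinct peaks, the 58 members with one had 45 in replicate 1 and 48 in replicate 2, so that members are not independent readings.

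The tallest pair was Hist2h2ac and Hist2h2be, with 8.23 in replicate 1 and 7.63 in replicate 2. The replicate 2 value comes from a peak centred 392 bp into Hist2h2be, and the peak between the starts was 6.75 there. Hist1h2an and Hist1h2bp had 5.82 and 5.40. Hist1h2ad and Hist1h2bf had 5.23 and 5.83, and Hist1h2ag and Hist1h2bj 5.48 and 4.44. Hist2h2ac and Hist2h2be were above the other pairs in both libraries, and the order of the 3 Hist1 pairs named here differed between the libraries. The lowest pair with a peak, Hist1h2ae and Hist1h2bg, had 1.92 and 1.87.

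Hist2h2aa2 stood apart among the H2A genes with 12.3 and 16.4, at a peak on its start (chr3:96240241-96240400 in replicate 1), although only 41.1% of its 36-base words were unique. Its close copy Hist2h2aa1 had 4.81 and 5.99. Hist2h2ab had 8.23 and 6.75, at peaks about 1 kb away that lie nearer Hist2h2ac. Hist3h2a had 4.20 and 5.58. The lowest H2A gene with a peak was Hist1h2ab, with 0.934 and 1.17. The median height of the 18 H2A genes was 4.22 in replicate 1 and 3.94 in replicate 2.

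H2B genes had a median of 3.74 in replicate 1 and 2.50 in replicate 2. With each peak given to its nearest gene alone, the medians were 1.61 and 1.703 for H2B and 1.74 and 2.41 for H2A, and the 5 H2B genes with at least 80% unique words had 1.79 and 2.13. After Hist2h2be the highest were Hist2h2bb with 5.51 and 6.35, a peak that Hist2h3b also reached, and Hist1h2bp. The lowest with a peak was Hist3h2ba, with 1.10 and 1.65. Hist1h2be had 3.17 and 4.91, but its annotated start lies 35168 bp from its start codon, and the peaks at that codon were 2.66 and 2.65. The 24 H2A and H2B genes in pairs had medians of 4.19 and 2.98, and the 12 others 3.46 and 3.63, so neither set was higher in both libraries.

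H3 genes had a peak in 11 of 12 cases, with medians of 4.29 and 5.11, or 5.84 and 7.80 for the 3 with at least 80% unique words. Hist1h3a had 14.9 and 23.0 by the 1 kb rule, but that peak is the one at Hist1h4a, centred 1025 bp downstream of the Hist1h3a start. The peak at its own start was 2.58 and 2.07. Hist1h3e had 8.21 and 9.81 at its own start, where 56.2% of the words were unique. Hist1h3b had 5.96 and 10.7, and Hist1h3g 5.84 and 7.80. The lowest were Hist2h3c2, with 1.10 and 1.11, and Hist1h3d, with 1.24 and 0.671. At Hist2h3c2 only 20.9% of the 36-base words were unique, so that its height is uncertain.

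The 9 genes without a promoter peak also had no base under the authors' false discovery rate of 0.05 within 1 kb of the start in either library. Hist1h2bq, Hist1h2ao, Hist1h2ap and Hist1h2br form 2 H2A-H2B pairs in which 0% of the 36-base words were unique. At Hist2h3c1 19.9% were unique. For these 5 genes a closed promoter and reads that could not be placed cannot be told apart. Hist1h1d was described above. The other 3 are known from germ cells: Hist1h1t, and the head-to-head pair Hist1h2aa and Hist1h2ba, at which 90.3% of the words were unique. The Hist1h2aa promoter shown above held CCAAT in either orientation 4 times, TATAAA 2 times on opposite strands and the octamer, and none of these matches was under a footprint. A footprint lies inside open chromatin, so with no hypersensitive base there its absence does not tell whether the matches were bound.

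Along chromosome 13 the Hist1 genes fall into 2 parts, 1.49 Mb apart. The first part (chr13:21715763-22043676) holds 23 genes, 19 with a peak, and had median heights of 3.77 and 2.53. The second part (chr13:23531050-23934851) holds 31 genes, 27 with a peak, and had 4.13 and 5.60. A median of 67.2% of the 36-base words were unique in the first part and 85.4% in the second, and the role of this gap was not tested. Among H4 genes the parts differed more: the 5 in the first part had medians of 3.77 and 3.18, and the 6 in the second 12.9 and 12.9. The medians of the 5 are the values of Hist1h4j, whose peak at the start was only 1.61 in replicate 1. Hist1h4m and Hist1h4n, also among the 5, had 4.83% and 5.09% unique words. Of the 5, Hist1h4i at the end of the first part (11.6 and 16.002) was the exception.

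**Figure D2:**
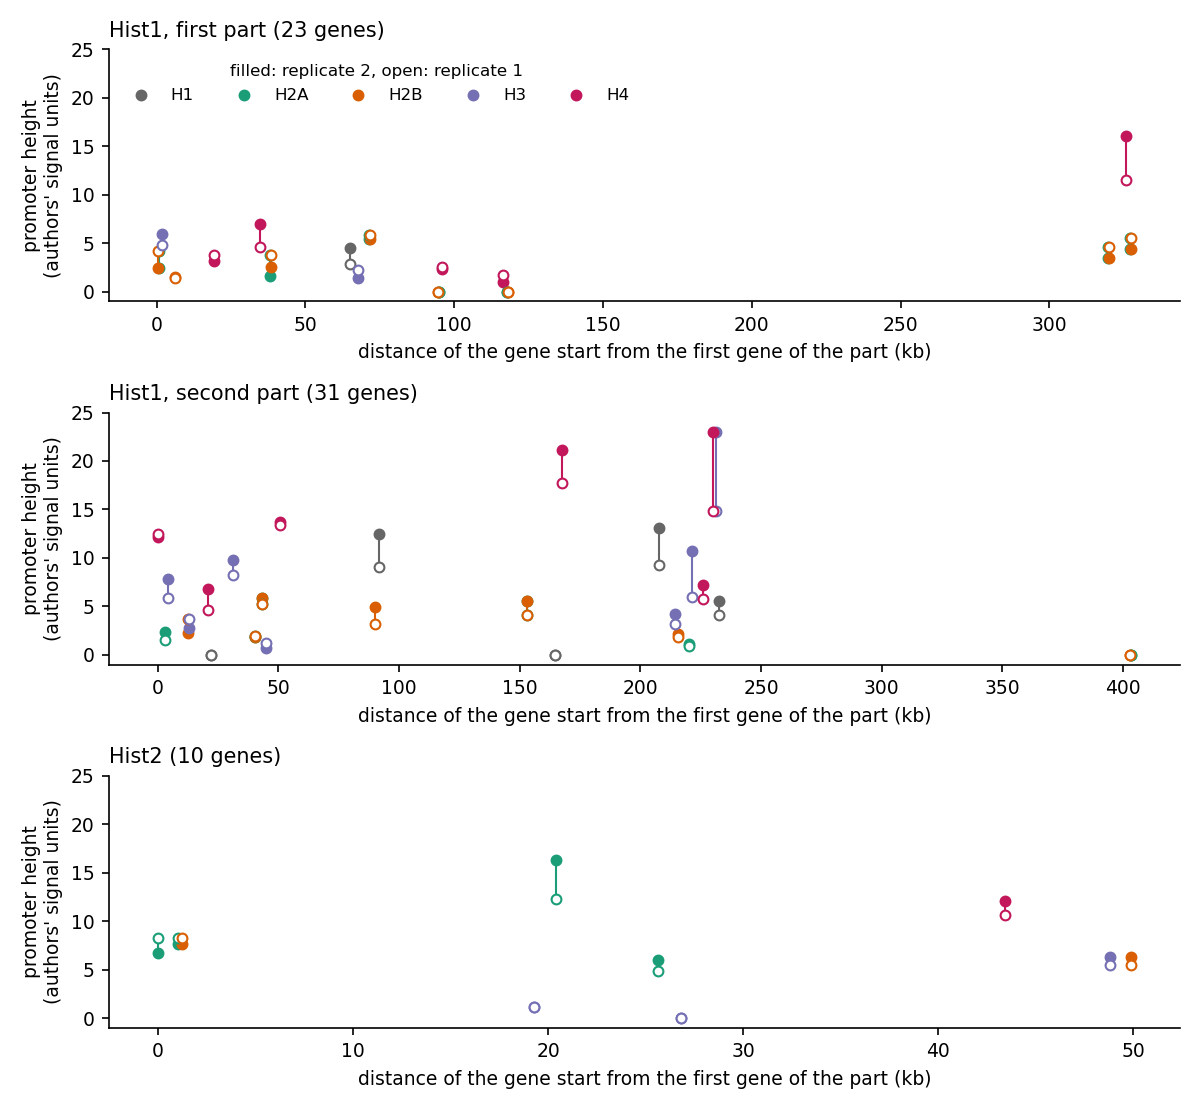
Promoter height in the authors' signal units against the distance in kb of each gene start from the first gene, for the 2 parts of Hist1 and for Hist2, coloured by histone type (open circles replicate 1, filled circles replicate 2). In the first part of Hist1 the H4 gene Hist1h4i (11.6 and 16.002) is the single gene above 10 in both libraries, while the second part has several such genes.

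The Hist2 cluster (chr3:96219865-96270132) had higher medians than Hist1 in both libraries. They were 6.87 and 6.55 for its 10 genes, 9 of them with a peak, against 4.13 and 3.84 for Hist1, a ratio of 1.66 and 1.71. The 2 Hist3 genes had a median of 2.65 and 3.61. Of the 49 other protein-coding genes between the first and last Hist1 members, 11 had a peak in both libraries, against 67.4% of all genes. In the gap between the parts 5 of 40 had one, and among those within the parts 6 of 9 (66.7%). Among 36 vomeronasal receptor genes 2 had a peak, and among the 13 others 9 did. Zfp322a, a zinc finger gene in the gap, had 12.7 and 21.4, and Abt1, an activator of basal transcription, 9.61 and 13.5. Hfe, the hemochromatosis gene between Hist1 members, had 1.99 and 3.33.

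Fewer of the H2A, H2B, H3 and H4 genes were hypersensitive 300 bp downstream of the start than at the start. At the position 60 bp upstream of the start, 100% of the 13 H4 genes were under the false discovery rate of 0.05 in both libraries. The highest share over all protein-coding genes was 56.7% in replicate 1 and 58.2% in replicate 2. The share of H4 genes was 23.1% and 30.8% at 300 bp downstream, where it was 46.4% and 50.1% for all genes. At the start and 300 bp downstream, H2A genes had 83.3% and 27.8% in replicate 1 and 77.8% and 27.8% in replicate 2. H2B genes had 83.3% and 22.2% in replicate 1 and 77.8% and 38.9% in replicate 2. Their share 250 bp upstream equalled that at the start. H3 genes went from 83.3% at the start in both libraries to 16.7% at 300 bp. At 410 bp H3 genes were again at 33.3% and 50%, against 40.5% and 44.4% for all genes. The share of H1 genes was 66.7% both at the start and at 300 bp in both libraries. The median number of hypersensitive bases within 1 kb was 567 and 603 for the 67 genes, and 568 and 651 for all genes.

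**Figure D3:**
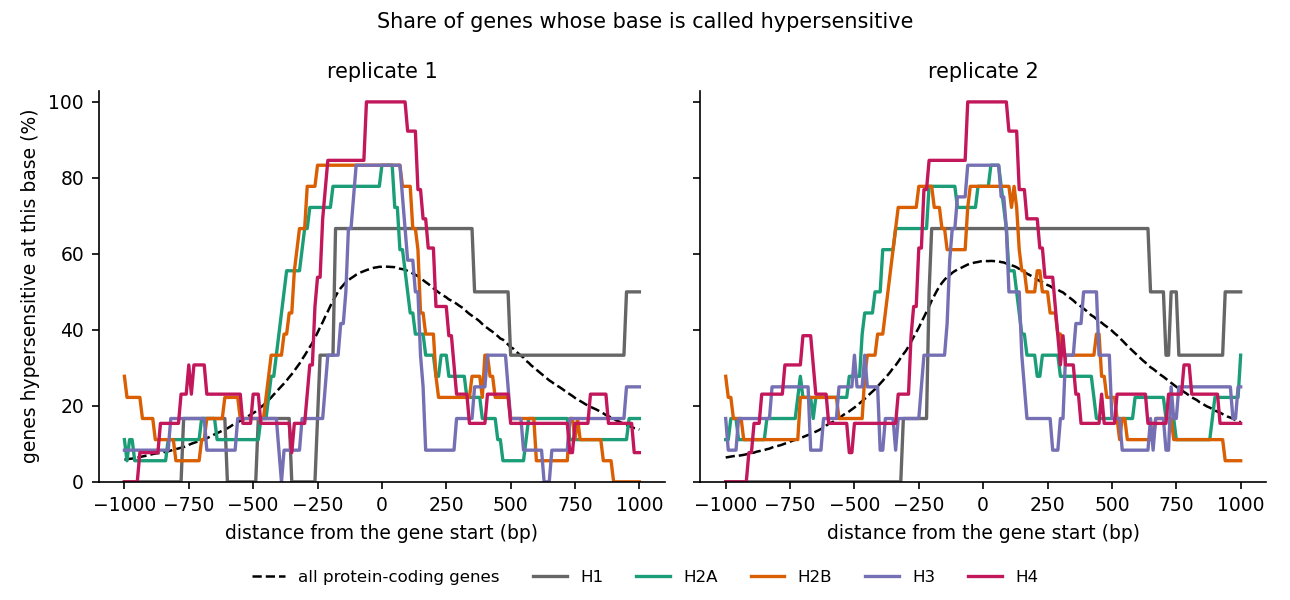
Share of genes, in percent, whose base is under the authors' false discovery rate of 0.05, against the distance from the gene start in bp, for each histone type and for all protein-coding genes (dashed), in replicate 1 (left) and replicate 2 (right). The H4 line reaches 100% around the start in both libraries and falls to 23.1% and 30.8% at 300 bp downstream.

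The letters in the promoters are given by histone type. All 10 motifs were searched as exact letters on both strands from 250 bases before to 50 bases after the start, each counted on its own where motifs overlap. A site between the starts of a head-to-head pair can be counted for both genes, so these promoters are not independent readings. CCAAT, the letters bound by NF-Y, occurred in 56 of the 67 promoters (83.6%) against 39.0% of all promoters. Each of the 18 H2A and 18 H2B promoters held it at least 2 times, 11 of 12 H3 promoters held it, and 4 of 13 H4 promoters did. A match overlapped a footprint in 57.1% and 48.2% of the members with the letters, against 25.9% and 27.3% over all promoters with them. Among genes with a promoter peak in both libraries these shares were 66.7% and 56.2% for members and 39.1% and 41.3% for all genes. TATAAA occurred in 55.2% of the members and in 12.6% of all promoters.

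Other motifs were rarer. ATTTGCAT, the octamer of the OCT factors, occurred in 7 H2A and 8 H2B promoters and in no H1, H3 or H4 promoter, and in 1.57% of all promoters. A footprint was on it in 3 of the 15 in replicate 1 and in 1 in replicate 2 (20% and 6.67%), against 9.57% and 9.28% of all promoters with the letters. Among genes with a promoter peak in both libraries these shares were 23.1% and 7.69% for members and 15.6% in each library for all genes. The 15 include both genes of several head-to-head pairs, such as Hist2h2ac and Hist2h2be, which can hold the letters at the same site. AAACACA, known from H1 promoters, occurred in 4 of 6 H1 genes and in 6.40% of all promoters. GGGCGG, bound by Sp1, was as common in members (41.8%) as in all promoters (43.0%), with 10 of 13 among the H4 genes. TGACGTCA occurred in 4 members and 2.43% of all promoters, TTTCCCGC in 3 members, all of them H4 genes, and 1.34%, and GCGGACG in 1 member and 3.12%. TTTGGCGC occurred in no member and in 0.693%. A match says only that the letters are there.

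The promoters printed above show how such matches and footprints fell together. In Hist2h2aa2, CCAAT at −113 and −84 and TATAAA at −47, counted from the gene start as 0, were under footprints in both libraries, and neither GGGCGG was. In Hist1h3e, the CCAAT at −137 and −70 were footprinted in both libraries, as in the replicate 1 footprint gctggccagaatCCAATcaga, and the 2 farther ones were not. In the space between Hist1h2an and Hist1h2bp, the CCAAT matches at −147 and −85 from the Hist1h2bp start were footprinted in both libraries, and the one between them in neither. In Hist1h1c no match was footprinted, and a footprint lay instead on the stretch gcgctctatatatacagcgc in replicate 1.

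In total 56 of the 67 genes had a footprint centred within 1 kb of a start in both libraries, against 64.6% of all genes. The median number was 5 in both libraries, and 4 for all genes. The most were found at Hist2h4, with 12 in replicate 1 and 13 in replicate 2, and Hist3h2a, with 9 and 14. Hist1h4h had 12 and 11, and Hist2h2ac 9 and 13. Hist1h2ae and Hist1h2bg had 4 in replicate 1 and none in replicate 2, and they were the 2 genes with a peak but without a footprint in both. Hist1h2ab had 1 in each.

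The libraries differed in height in general, and the histone genes had a smaller median difference. Heights were higher in replicate 2, by a median of 0.57 on the log2 scale over the 14797 genes with a peak in both, and the median for the 58 histone genes was 0.20. Lower heights in replicate 2 than in replicate 1 were found for 23 of the 58 (39.7%), against 3.64% of all genes. These 23 rest on 14 distinct peaks of replicate 1. Other genes with heights of 2 to 8 in replicate 1 had a median of 0.61, and the 33 histone genes in that range had 0.16. Of the 58 genes, 29 were below the 5th percentile of other genes of like mean height.

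The same values were taken by sequence uniqueness, type and position. The 26 genes with a peak and at least 80% unique words had a median of 0.39, with 6 of them lower in replicate 2, and the 32 below 80% had −0.04. Other genes with 60 to 80% unique words had 0.53, and the 25 members in that range −0.11. By type the medians were 0.47 for H1, −0.04 for H2A, −0.04 for H2B, 0.26 for H3 and 0.25 for H4. Within the first part of Hist1 14 of 19 were lower in replicate 2 (median −0.31), and within the second part 6 of 27 (median 0.32). H2A and H2B genes in pairs had −0.11, with 14 of 18 lower, and those not in such a pair 0.32, with 2 of 12 lower. The 18 form 9 pairs that each share the tallest peak in replicate 1, so they are not 18 separate readings. A median of 66.9% of the words were unique for the H2A and H2B genes in pairs and 81.3% for the others, and the part of this was not tested. No sample or batch label beyond the replicate and animal numbers goes with this difference.

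**Figure D4:**
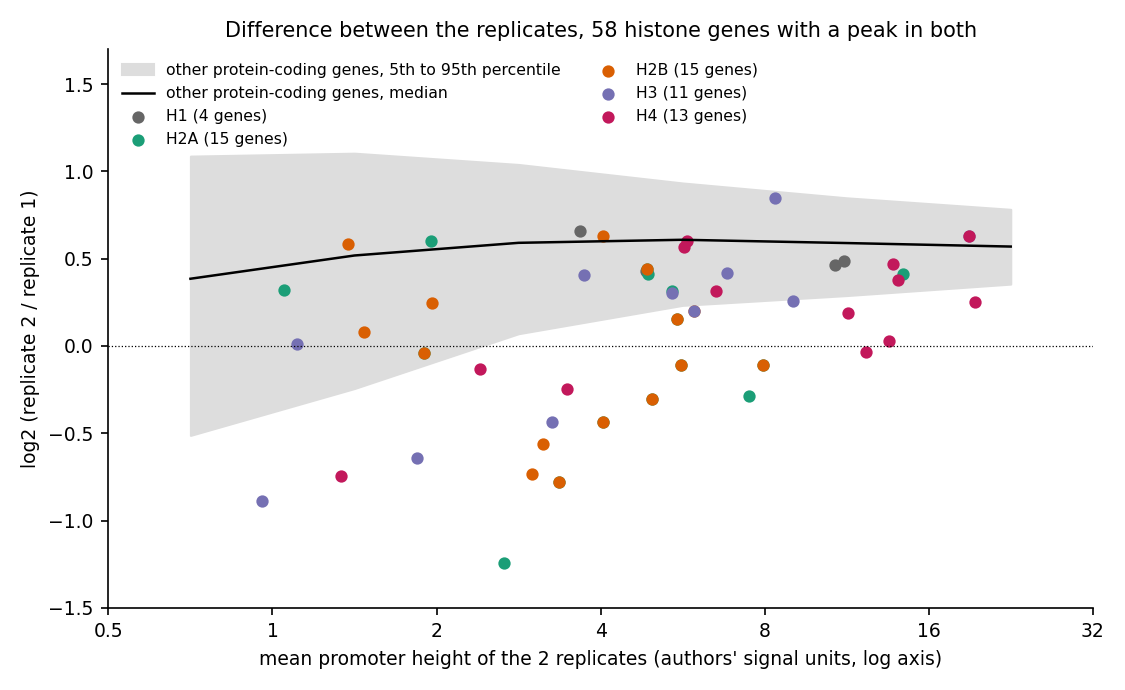
Log2 ratio of promoter height, replicate 2 over replicate 1, against the mean height of both in the authors' signal units on a log axis, for the 58 histone genes with a peak in both libraries, coloured by type (genes that share a peak lie on top of each other). The black line and grey band are the median and the 5th to 95th percentile of other protein-coding genes in bins of height, and 29 of the 58 points lie below the band.

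The single genes behind these medians moved both ways. The largest fall was at Hist1h2ak, from 3.74 to 1.58, a log2 ratio of −1.24, with tallest peaks centred at −154 bp and 26 bp from the start. Hist1h3d had −0.89, and Hist1h2ai and Hist1h2bl, which share a peak, went from 4.24 to 2.47, or −0.78. The largest rise was 0.85, at Hist1h3b. Nearly equal heights were found at Hist2h3c2 (0.01), Hist1h4d (0.03), Hist1h4h (−0.03) and the pair Hist1h2ae and Hist1h2bg (−0.04).

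The 3′ ends bore the mark of replication-dependent genes, the histone stem-loop, searched within 200 bases after the stop codon on the strand of the gene. Its most frequent form occurred in 41 of the 67 genes and in 42 of 21735 protein-coding genes with an annotated stop codon. No H4 gene had that form. Of the 13 H4 genes 8 had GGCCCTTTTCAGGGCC, 2 had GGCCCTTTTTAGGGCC, 2 had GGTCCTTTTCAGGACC and Hist1h4a had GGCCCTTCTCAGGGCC. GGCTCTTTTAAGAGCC occurred in 9 members, among them Hist1h1t and Hist1h2ba. A looser pattern, with the outer and innermost pairs of the stem and part of the loop fixed, occurred in 65 of the 67 genes and in 0.713% of all genes. The exceptions were Hist2h2be and Hist1h2an. It began 22 to 59 bases after the stop codon, with a median of 31. Of 11 replication-independent histone genes 1 had it. The 5 genes with few unique words and no peak and the 3 known from germ cells all had the looser pattern.

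Genes that act on the histone genes had a higher median height than the histone genes themselves. Of 22 symbols listed for the histone locus body and 3′ end processing, 18 were found in the annotation. All 18 had a peak in both libraries, against 67.4% of all genes, with medians of 13.2 and 19.5. Npat, which couples cyclin E to histone transcription, had 22.4 and 37.0, the tallest by mean. Casp8ap2, which encodes the locus body protein FLASH, had 18.3 and 20.6, and Hinfp, the H4 promoter factor, 17.02 and 24.9. Slbp, the stem-loop binding protein, had 13.2 and 20.3. The lowest was Cpsf2, a subunit of the 3′ end cleavage complex, with 3.69 and 6.43.

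The medians of the other lists were also above that of the histone genes. The 10 genes of G1/S control had medians of 8.41 and 12.6, from Ccne2 (4.70 and 7.59) to Ccne1, which encodes cyclin E1 (19.7 and 30.7). The 11 genes listed as replication-independent histones had 10.7 and 16.6, from H2afy2 (1.78 and 3.58) to H2afv (17.9 and 29.9). The 11 histone chaperones had 15.3 and 21.2, from Nasp (6.73 and 8.22) to Hjurp (52.6 and 72.4). The 15 genes of S phase and proliferation had 11.4 and 16.1, from Tk1 (2.34 and 4.52) to Ccna2 (18.6 and 23.3). In each of these 5 lists every gene had a peak in both libraries, against 67.4% of all genes. The lists had medians of 61 to 87 CpG in the 1 kb around the start. Of the 4099 other genes in the middle CpG range of the members, 96.1% had a peak in both. Their median heights, 8.68 and 13.1, were above those of the G1/S list and below those of the other lists. The part of CpG content in the list heights was not tested. In all 5 the log2 ratio had a median of 0.49 or more, above the 0.20 of the clustered histone genes.

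**Figure D5:**
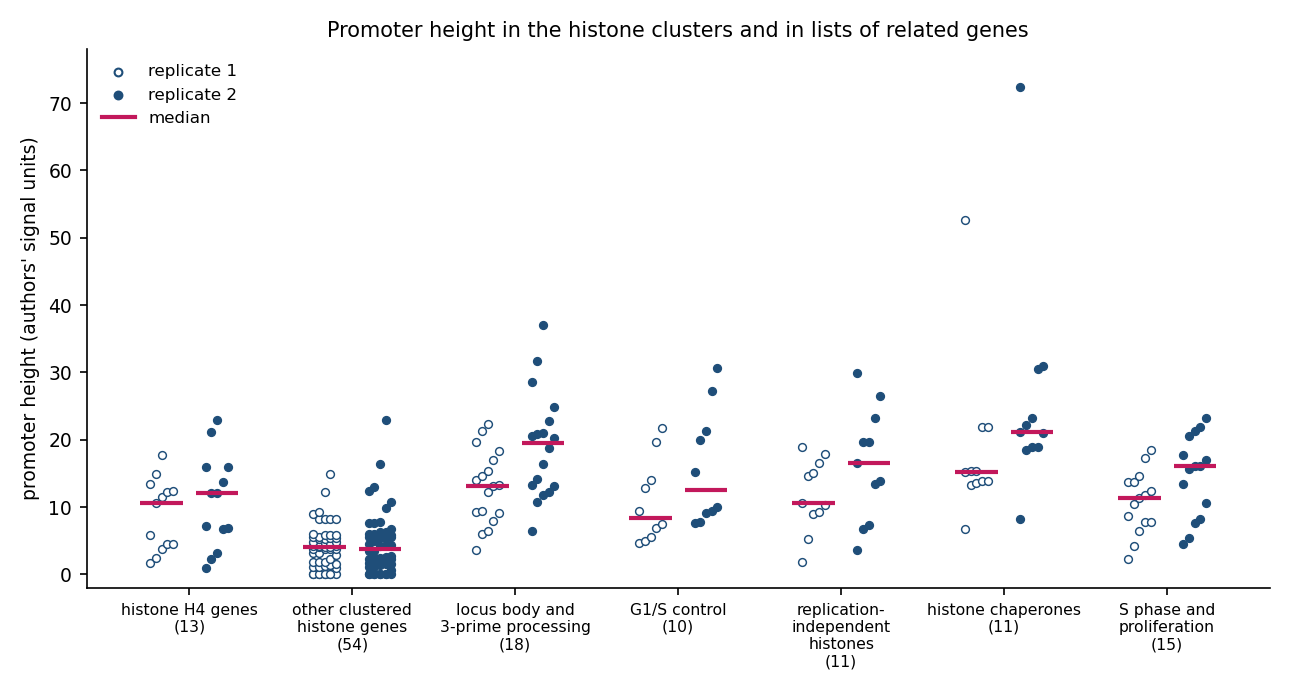
Promoter height in the authors' signal units of the 13 H4 genes, the 54 other clustered histone genes and 5 lists of related genes, with the number of genes in parentheses. Open points are replicate 1, filled points replicate 2 and bars the medians, which are lower for the clustered histone genes other than H4 (4.13 and 3.84) than for each list.

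The libraries themselves were alike in size, with 157595 and 166206 peaks and 297594 and 298189 footprints. Peak heights within each library were whole multiples of 1 step, which, if a step is 1 tag in 1000000, would put the depth at about 107.0 and 113.3 times that number of tags, an inference from the values. No counting interval could be given for a height. The tissue label was checked against marker genes. All 5 markers of the adrenal cortex had a promoter peak in both libraries, with Nr5a1 at 6.62 and 11.7. None of the 3 markers of lymphocytes or of the 3 of erythroid cells had a peak. In whole tissue, few cells with an open promoter and a weakly open promoter in many cells cannot be told apart.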

How the data were processed

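DNase-seq peaks, false discovery rates and footprints of 2 libraries were used, all on mm10. Per the text deposited with the files, they were made library by library from filtered alignments. The aligner and peak caller are not given in the sources used. Peak heights are the deposited signal of the longer of 2 peak lists, in a scale the authors do not state. The deposited table of false discovery rates holds p-value-like numbers under 0.05, and the p-value column of the deposited footprint lists was the constant 0.01 and ranked nothing.

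Genes and start sites came from the GENCODE basic annotation of GRCm38 on 21 chromosomes. Heights, footprints by centre, unique 36-base words, CpG counts and motif matches were computed with Python 3.11.15, numpy 2.4.6, pandas 2.3.3 and numba 0.67.0, and figures with matplotlib 3.10.9. The interval code was tested on simulated data. Gene names were matched by symbol, and 27 genes share a symbol with another.

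Named with values were, in each type, the 3 tallest members and the lowest with a peak, all members outside Hist1, those without a peak, those known from germ cells, the 5 largest and 5 smallest ratios between libraries, those with most footprints, and the tallest and lowest of each list. The remaining H4 genes, Hist1h3g, some H2A-H2B pairs, Hist1h2be and the neighbours were named after their values were seen. The members, lists and motifs were chosen with earlier results of these data known. Errors are SDs over the 2 libraries, and 1 group allowed no test. Alternatives for the peak list, window, assignment of peaks, start site and sequence uniqueness were tried.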

Additional observations from a re-analysis of the deposited data

How the results depend on the processing

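The count of 58 genes with a peak in both libraries stayed within 1.5 times under every alternative but the limit to genes with at least 80% unique words, which leaves fewer genes and gave 26 of 30, and 26 with a footprint. The shorter peak list dropped Hist1h3d and Hist1h2ab, the assignment of each peak to its nearest gene left 49, and a window of 2 kb gave 65. The median height of 4.37 was 4.19 with a window of 500 bp, 5.40 with 2 kb, 3.19 by nearest gene and 5.68 for the genes with at least 80% unique words. The ratio of the H4 median to that of the other types, 2.86 as the mean of both libraries, was 2.16 with a window of 2 kb and 4.68 by nearest gene. The ratio of Hist2 to Hist1, 1.68, was 1.58 with 500 bp, 1.57 with 2 kb, 1.62 with peak centres in the window, 2.09 by nearest gene and 1.59 from the start codon, an alternative chosen after seeing the data. The log2 ratio of 0.20 between libraries was 0.39 for the genes with at least 80% unique words and −0.38 after heights were divided by the median of all genes with a peak in both libraries, which moves it by construction. Except where stated, the cause was not tested. With 1 library left out, the count with a peak was 58 to 58, the median height 4.24 to 4.49, the type ratio 2.57 to 3.16, the cluster ratio 1.66 to 1.71 and the count with a footprint 56 to 58. No paired analysis was possible because there is 1 group. Depth limits low heights, and its size is inferred.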
